A study of Mus musculus with 6 samples.

Results

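The olfactory receptor genes were represented by 44 probe sets for 39 genes, chosen because their single gene symbol in the platform annotation begins with Olfr and a digit. No filter on signal was applied. They were 44 of 45037 probe sets that are not array controls, and all 39 genes were found by gene identifier in a RefSeq table that lists 1428 such genes, so the array samples a small share of the family. The cells were NIH3T3 mouse fibroblasts of clone M, a single clone with multiple genomic insertions of lacO (the operator sequence to which the lac repressor binds). On 3 arrays the insertion lay at the nuclear periphery (tethered) and on 3 it lay centrally in the nucleus (untethered). All cells carried the insertions and were grown in DMEM with 10% FCS at 37 degrees and 5% CO2, all to a like confluency. The labels name neither the protein that did the tethering nor the genomic position of the insertions, and do not state which replicates, if any, were cultured apart. P-values therefore measure the spread between these samples, which may be partly technical.

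Olfactory receptors are odour-binding receptors with a membrane-spanning helix bundle, and they signal through a G protein, adenylyl cyclase and a cyclic nucleotide-gated channel. Each mature olfactory neuron expresses a single receptor allele and keeps the others silent in compact heterochromatin. In cells outside the nose most of these genes are silent, and their clusters, rich in A and T, are known as typical residents of the nuclear periphery. The study asked how regions brought to the inner nuclear membrane are transcribed.

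The median intensity of all probe sets lay between 482.5 and 490.8 on the 6 arrays, and log2 intensities correlated at 0.978 to 0.995 between arrays. Tethered replicate 1 correlated at 0.992 with untethered replicate 1, against 0.981 and 0.978 with tethered replicates 2 and 3. Tethered replicate 3 correlated at 0.995 with untethered replicate 3 and at 0.994 with tethered replicate 2. All 8 fibroblast markers checked (Col1a1, Col1a2, Col3a1, Fn1, Vim, Thy1, Pdgfrb and S100a4) were above the array median, at 4.12 to 49.6 times it on their brightest probe sets. On their brightest probe sets the 5 olfactory neuron markers (Omp, Gap43, Stmn2, Tubb3 and Ncam1) lay between 0.979 and 1.99 times the median. Of their 13 probe sets, 7 lay below the median on all 6 arrays and 2 above it on all 6. The mean log2 intensity of the brightest ran from 9.11 to 9.32 in tethered and from 9.01 to 9.28 in untethered arrays. Both blood markers lay below the median. Of the epithelial markers Epcam stood at 5.60 times the median on the brighter of its 2 probe sets. Krt8, Krt18 and Cdh1 lay between 0.232 and 0.963 times it on their brightest. Of the 7 epithelial probe sets, 3 lay below the median on all 6 arrays and only 1 above it on all 6. The other Epcam probe set was thus not above the median on all 6, and the high Epcam signal rested on 1 probe set. The endothelial markers Kdr, Pecam1 and Cdh5 stood at 1.36, 1.07 and 0.704 times the median. None of the markers was at the floor of the scale. Of the RNA controls GAPDH differed little between arrays, with a 5′ minus 3′ difference from -0.060 to 0.095 (log2). The other controls differed more. The transferrin receptor control, read at both ends as a sign of RNA quality, had a 5′ minus 3′ difference of -2.09, -1.67 and -1.55 (log2) in tethered replicates 1 to 3 and -2.81, -3.07 and -1.52 in untethered replicates 1 to 3. The 5′ signal of 18S ribosomal RNA was 10.94, 10.48 and 10.79 in tethered and 12.06, 12.16 and 11.15 in untethered arrays, so these groups did not overlap.

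Most olfactory receptor probe sets read below the middle of the array, and few lay above its upper quartile. On each array, between 27 and 29 of the 44 were below the array median. The median member had 307.5, 328.5 and 316 intensity units in tethered replicates 1, 2 and 3, and 313.7, 318.9 and 338.1 in untethered replicates 1, 2 and 3. These are 0.637, 0.678 and 0.654 times the array median in tethered and 0.650, 0.657 and 0.689 times it in untethered arrays, so the groups overlapped. Between 10 and 12 members lay below the lower quartile of the array, about the share of 44 that the definition of a quartile gives, while 1 or 2 lay above the upper quartile. By gene, 23 of 39 had every probe set below the median on all 6 arrays, 13 had at least 1 probe set above it on all 6, and 3 (Olfr65, Olfr67 and Olfr68) crossed it between arrays. A signal at this height does not show transcription: probe sets differ in how strongly they bind other RNA, no detection calls were used here, and no member reached the floor of 16. In a bulk sample fewer expressing cells and less RNA per cell cannot be told apart.

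**Figure D1:**
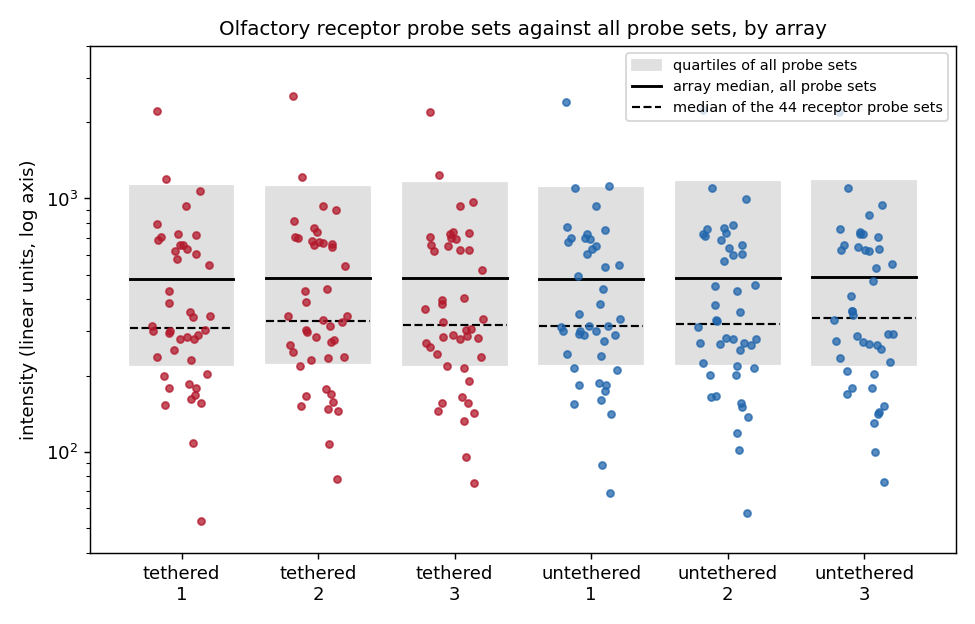
Intensity of the 44 olfactory receptor probe sets (points; linear units on a log axis) on each of the 6 arrays, with the range between the quartiles of all probe sets (grey), the array median (solid line) and the receptors' median (dashed line). The receptors' median lies between 307.5 and 338.1 on every array, below the array medians of 482.5 to 490.8, and only 1 or 2 points on each array exceed the grey box.

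The brightest signal came from Olfr64, a class I receptor beside the beta-globin genes, at 2218, 2536 and 2195 units in tethered replicates 1, 2 and 3 and 2404, 2242 and 2186 in untethered replicates 1, 2 and 3. It stood at 4.74 times the array median in the mean of 6 arrays, with overlapping groups. Olfr140 followed at 2.39 times and Olfr49 at 2.06 times the median, and these 3 were the only probe sets above 2 times. The other 7 of the 10 brightest were those of Olfr78 (1421506_at), Olfr672, Olfr70, Olfr112, Olfr288, Olfr1508 and Olfr15, at 1.39 to 1.85 times the median. At the other end, 13 probe sets read under 0.5 times the median. A probe set's signal is not a transcript level, as the 4 probe sets of Olfr78 show: they stood at 1.85, 1.37, 1.33 and 0.141 times the array median. Around the median itself, the nearest members were Olfr68 at 0.894 and Olfr67 at 1.09 times it.

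Receptors used as models of the family, or known for activity outside the nose, were spread over the same range. Olfr16, a receptor also known from sperm, stood at 1.30 times the array median, with 628.9, 667.3 and 624.5 units in tethered and 651.8, 596.7 and 622.9 in untethered replicates 1, 2 and 3. Olfr2, the I7 receptor for aliphatic aldehydes, stood at 0.654 times, and Olfr73, a receptor for eugenol, at 0.497 times the median. Olfr17, long used to trace receptor axons to the olfactory bulb, stood at 0.376 times it. Olfr558, the neighbour in sequence of Olfr78 (both MOR18), stood at 0.441 times and Olfr544 at 0.456 times the median. In all of these the 2 groups overlapped, and their log2 fold changes, tethered minus untethered, ran from -0.10 for Olfr17 to 0.09 for Olfr558, each with a standard error between 0.065 and 0.093. Olfr15 stood at 0.02 (SE 0.073).

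With tethering the receptors as a class moved little. Over the 44 probe sets the median log2 fold change was 0.037, with quartiles of -0.059 and 0.089, against a median of -0.0029 and quartiles of -0.083 and 0.067 over all 45037 probe sets. Values above 0 numbered 27 of 44 and values below 0 numbered 17, where 48.8% of all probe sets and 53.5% of those with a mean signal below the median were above 0. The balance differed between arrays. Between arrays numbered 2, 32 of 44 members were higher in the tethered array, with a median difference of 0.081. Between arrays numbered 1 it was 17 of 44 (-0.027) and between arrays numbered 3 it was 24 of 44 (0.0049). Over all probe sets the same 3 comparisons gave 48.7%, 51.7% and 49.5% above 0. The median of the members was 0.012 without tethered replicate 2, 0.012 without untethered replicate 2 and 0.019 without untethered replicate 3. It was 0.083 without both arrays numbered 1. Values above 0 then numbered 24, 26, 23 and 28 of 44, in the same order. The untethered replicate 2 array had the lowest mean deviation of the members from their 6-array mean (-0.043) and the lowest transferrin receptor 5′ minus 3′ signal (-3.07), and the part of RNA quality in the difference was not tested. No cell type marker passed the adjusted threshold, and values were mixed on the brightest probe sets. All 8 fibroblast genes were below 0, among them Pdgfrb at -0.73 (SE 0.24), and all 4 epithelial genes above 0. Of the neuron markers, Ncam1 stood at -0.40 (SE 0.12) and Gap43 at -0.04, while Omp, Stmn2 and Tubb3 stood at 0.10, 0.05 and 0.23. The endothelial Kdr, Pecam1 and Cdh5 stood at 0.11, 0.18 (SE 0.065) and -0.04, and the blood markers Cd68 and Ptprc at -0.14 and 0.06. The groups did not overlap in Pdgfrb, Ncam1, Kdr, Pecam1 and Cd68. The adjusted p of each of these was 0.989 (limma), and their part in the receptors' values was not tested.

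Limma called 0 of 44 members at an adjusted p under 0.05 (smallest adjusted p = 0.989), as it called 0.0% of all probe sets. At an unadjusted p under 0.05 there were 3 members, Olfr65 and Olfr66 lower and Olfr140 higher in tethered cells, where 3.96% of all probe sets passed (2.29% lower, 1.67% higher). The count was 1 without tethered replicate 2 and 1 without tethered replicate 3. The groups did not overlap in 9 of 44 members, 4 lower and 5 higher, where 9.72% of all probe sets did not overlap (4.34% lower, 5.38% higher) and 11.3% of those with a mean signal below the median. The difference had the same sign at all 3 array numbers in 15 members, 6 lower and 9 higher, where 15.1% of all probe sets were lower and 15.5% higher at all 3. Sizes were small: 2 of 44 members differed by more than 0.2 on the log2 scale, where 11.5% of all probe sets did. In 26 members the difference lay within its standard error. The same share over all probe sets was not computed, so this count shows nothing particular to the receptors. The 18S 5′ control did not overlap between the groups either, and its part in these separations was not tested.

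**Figure D2:**
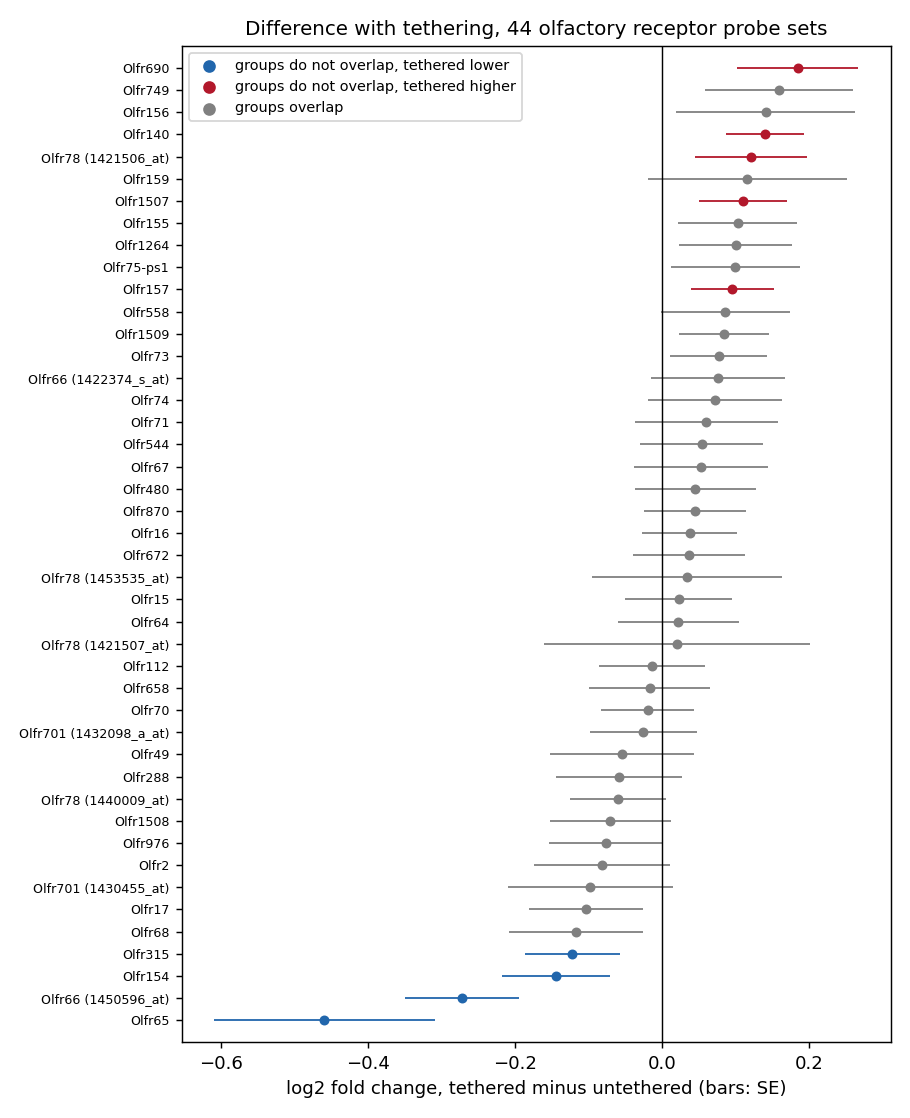
Log2 fold change of each of the 44 olfactory receptor probe sets, tethered minus untethered (points), with its standard error (bars), coloured by whether the 3 tethered and 3 untethered values overlap. All but Olfr65 (-0.46) and 1 probe set of Olfr66 (-0.27) lie within 0.2 of 0.

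The members with the largest differences, Olfr65 and Olfr66, lie close to each other in the genome. In the order of the RefSeq table on chromosome 7, Olfr69, Olfr68 and Olfr67 lie on one side of the beta-globin genes and Olfr66, Olfr64 and Olfr65 on the other, with a pseudogene between Olfr66 and Olfr64. All are class I receptors, the group most like those of fish, and Olfr64, Olfr65 and Olfr66 share receptor family MOR1. Olfr65 read 340.3, 312 and 302 units in tethered replicates 1, 2 and 3 and 439, 357 and 533 in untethered replicates 1, 2 and 3. The lowest untethered array lay above the highest tethered one, and the untethered arrays were spread most widely. The group means were 318 ± 20.0 and 443 ± 88.0 (SD, n = 3 each), a log2 fold change of -0.46 (SE 0.15; limma, unadjusted p = 0.021, adjusted p = 0.989). With 1 array left out the value ran from -0.61 to -0.32.

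Olfr66 was read by 2 probe sets that did not move together. On 1450596_at it had 251, 230.3 and 217 units in tethered and 289, 267 and 287 in untethered replicates 1, 2 and 3, with no overlap. The log2 fold change was -0.27 (SE 0.078; limma, unadjusted p = 0.012, adjusted p = 0.989), and it ran from -0.33 to -0.22 with 1 array left out. On 1422374_s_at, whose suffix marks probes shared between transcripts, Olfr66 had 284, 331 and 279 units in tethered and 301, 279 and 268 in untethered arrays, which overlap, and a value of 0.08 (SE 0.091). Olfr64, which lies between Olfr66 and Olfr65, stood at 0.02 (SE 0.082). Across the globin genes Olfr67 stood at 0.05 (SE 0.092) and Olfr68 at -0.12 (SE 0.092), the latter with 431, 431.4 and 385 units in tethered and 493, 449.7 and 411 in untethered arrays, lower in the tethered array at each number but overlapping. The embryonic globin genes between them, Hbb-bh1 and Hbb-y, had 3 probe sets each, with values from -0.11 to -0.08 and from -0.05 to 0.15. The 2 probe sets that carry the symbols of both Olfr68 and Olfr69 are not members. They stood at -0.06 (SE 0.071) and -0.23 (SE 0.102), and their groups overlapped. Values thus lay on both sides of 0 across this neighbourhood.

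**Figure D3:**
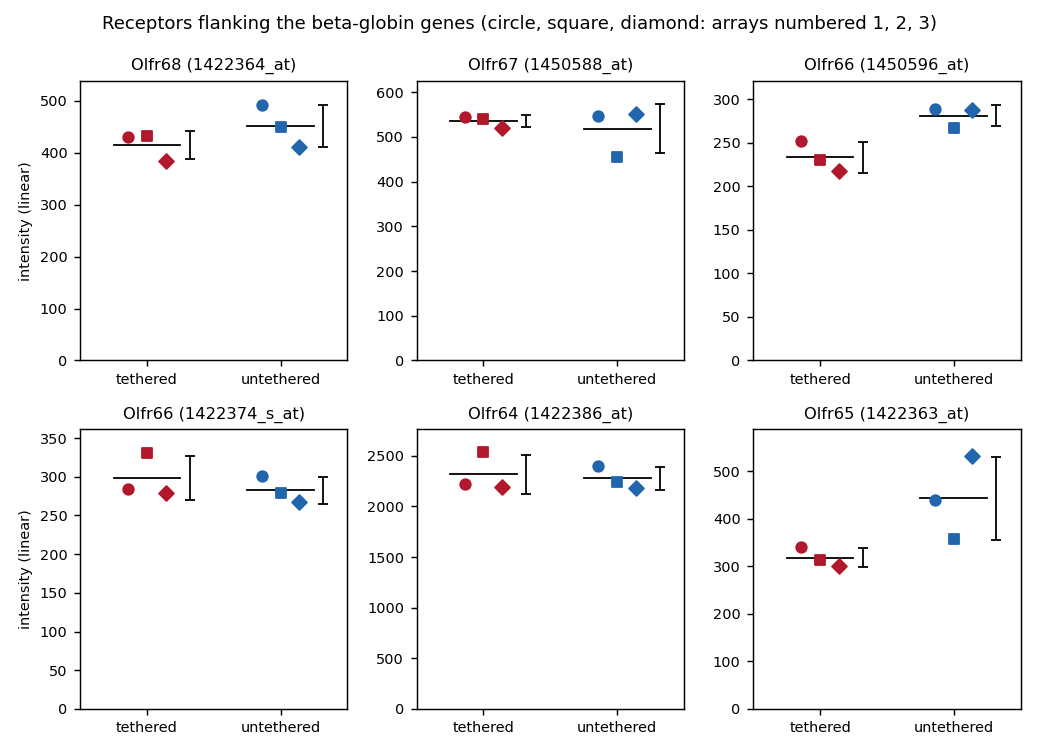
Intensities (linear units, from 0) of the 6 member probe sets of receptors that flank the beta-globin genes, by group, with the group mean (line) and SD (bar to the right; n = 3). Probe sets that carry the symbols of both Olfr68 and Olfr69 are not shown. The 3 tethered values lie below the 3 untethered ones for Olfr65 and for Olfr66 on 1450596_at, and overlap with them for Olfr68, Olfr67, Olfr64 and Olfr66 on 1422374_s_at.

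The bases upstream of the annotated start are shown for Olfr65, Olfr64 and Olfr66, the receptors on one side of the globin genes, and for Olfr140, the member higher at an unadjusted p under 0.05. Members with lower, higher and near-zero values can so be read side by side. Sequences are from RefSeq (GRCm38.p6), 250 bases each, 5′ to 3′ on the gene's strand. Capitals mark motif matches on either strand. The first motif searched was TAATNA, a core sequence to which homeodomain factors such as Lhx2 bind. The second was the TATA box, searched as TATAAA, whose letters differ from the first. The last was CCCNNGGG, the palindromic core to which Olf1/EBF factors bind.
Olfr65 (chr7:103906092-103906341, plus strand): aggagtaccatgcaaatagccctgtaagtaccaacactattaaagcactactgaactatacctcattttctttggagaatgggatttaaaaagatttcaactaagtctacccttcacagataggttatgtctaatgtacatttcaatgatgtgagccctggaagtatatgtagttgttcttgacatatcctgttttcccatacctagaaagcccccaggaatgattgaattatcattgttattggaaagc
Olfr64 (chr7:103894472-103894721, minus strand): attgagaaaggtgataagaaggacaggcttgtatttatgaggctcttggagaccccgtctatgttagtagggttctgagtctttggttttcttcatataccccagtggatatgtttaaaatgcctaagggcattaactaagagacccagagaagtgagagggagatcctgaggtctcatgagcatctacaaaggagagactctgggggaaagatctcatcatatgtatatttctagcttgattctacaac
Olfr66 (chr7:103882242-103882491, minus strand): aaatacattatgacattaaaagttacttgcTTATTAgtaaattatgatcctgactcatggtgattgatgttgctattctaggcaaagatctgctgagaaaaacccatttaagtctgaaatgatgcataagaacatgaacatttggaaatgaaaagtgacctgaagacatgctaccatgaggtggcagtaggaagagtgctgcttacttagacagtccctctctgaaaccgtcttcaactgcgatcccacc
Olfr140 (chr2:90052323-90052572, minus strand): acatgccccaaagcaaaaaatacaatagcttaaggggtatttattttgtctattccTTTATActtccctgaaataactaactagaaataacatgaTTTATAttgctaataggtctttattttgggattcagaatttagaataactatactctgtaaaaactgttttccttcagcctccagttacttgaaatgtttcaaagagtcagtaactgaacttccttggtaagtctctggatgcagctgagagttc
Olfr65 and Olfr64 held none of these letters in the window, Olfr66 held 1 match to TAATNA and Olfr140 held 2 matches to TATAAA. In Olfr66 and Olfr140 the annotated start is itself a start codon, so the window lies before the coding exon and need not be the promoter.

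Upstream windows were at hand for 29 of the 39 genes (30 windows, as Olfr976 has 2). They held a median of 59.4% A and T, against 66.0% over 948 windows of all olfactory receptors and 47.6% over 32851 windows of all genes. TAATNA was found in 14 of 30 member windows, in 63.8% of all olfactory receptor windows and in 24.3% of all windows. TATAAA was found in 9 of 30, in 39.2% and in 12.4%, in the same order. CCCNNGGG was found in 1 of 30 (Olfr288), in 2.74% and in 11.8%. Motifs of A and T are more frequent where the bases are A and T, so these shares describe composition as much as sites. The annotated start was a start codon in 10 of 30 member windows, against 72.4% of all olfactory receptor windows and 5.83% of all windows.

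Among the other receptors without overlap, 5 probe sets were higher and 2 lower in tethered cells. Olfr140, of chromosome 2, had 1197, 1214 and 1235 units in tethered and 1099, 1104 and 1104 in untethered replicates 1, 2 and 3, with little spread in either group. Its means were 1215 ± 19.0 and 1102 ± 3.16 (SD, n = 3 each), a log2 fold change of 0.14 (SE 0.054; limma, unadjusted p = 0.038, adjusted p = 0.989), and it ran from 0.13 to 0.15 with 1 array left out. Olfr690, a class I receptor, had 344, 343.9 and 335 units in tethered and 333, 278 and 291 in untethered arrays, a value of 0.19 (SE 0.082), the highest of the class. The untethered replicate 1 array lay close to the tethered ones. Olfr1507, known as MOR28 and controlled by the H enhancer, had 387, 389.7 and 398 units in tethered and 349.9, 379 and 359 in untethered arrays (0.11, SE 0.060). Olfr157, of the OR37 group of receptors, had 655, 673 and 694 units in tethered and 631, 636 and 625 in untethered arrays (0.10, SE 0.056).

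Olfr78, a receptor known from kidney and carotid body, showed no overlap on 1 of its 4 probe sets. On 1421506_at it had 937, 931 and 931 units in tethered and 929.9, 788 and 862 in untethered arrays, a value of 0.12 (SE 0.077), with tethered arrays close to each other and untethered replicate 1 within 2 units of them. The value was 0.06 without untethered replicate 2 and ran up to 0.18 with another array left out. The other 3 probe sets overlapped, at -0.06, 0.03 and 0.02. Olfr154 was lower, at 299, 297 and 284 units in tethered against 300.2, 328 and 346 in untethered arrays (-0.14, SE 0.073), with untethered replicate 1 again next to the tethered arrays. Olfr315, of chromosome 11, was lower too, at 153, 151 and 144 against 155, 164 and 169.8 units (-0.12, SE 0.065). None of these values passed the adjusted threshold. For Olfr78, Olfr154 and Olfr315 the difference at number 1 was within 0.02 of 0, and the separation rested on numbers 2 and 3.

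**Figure D4:**
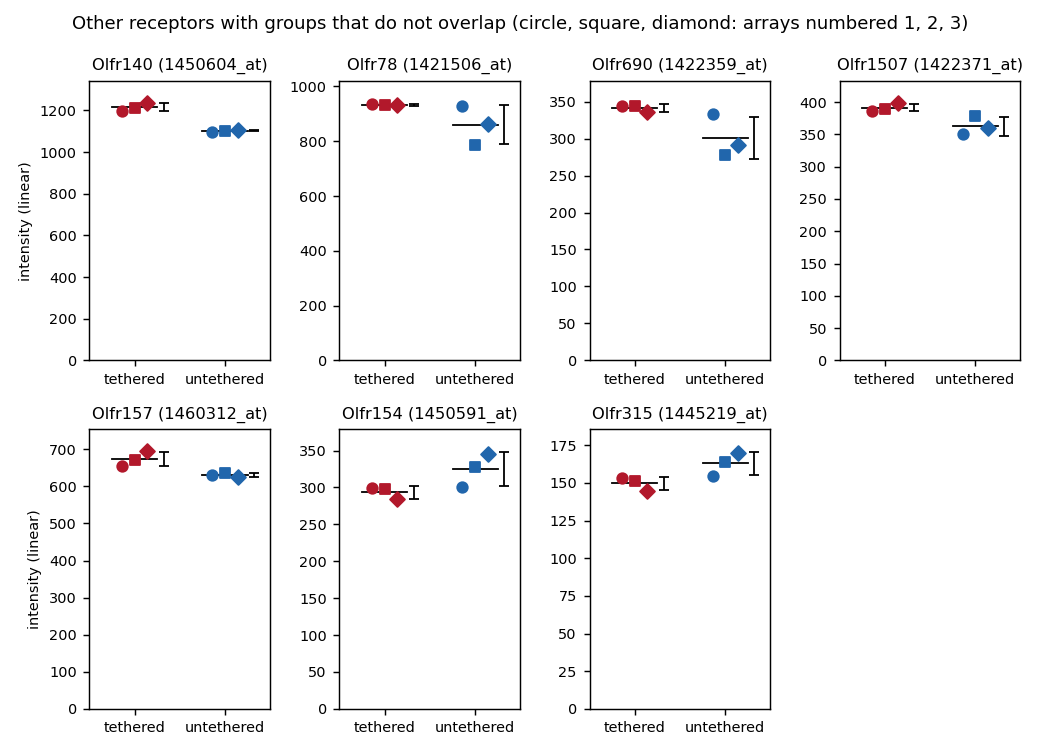
Intensities (linear units, from 0) of the 7 other receptor probe sets whose groups do not overlap, by group, with the group mean (line) and SD (bar to the right; n = 3). Tethered values are higher in Olfr140, Olfr78, Olfr690, Olfr1507 and Olfr157 and lower in Olfr154 and Olfr315, with log2 fold changes from -0.14 to 0.19.

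Grouped by sequence family, values lay on both sides of 0 in both classes of receptor. Class I receptors (families MOR1 to MOR42, all on chromosome 7) had 15 probe sets for 11 genes, 10 above and 5 below 0, with a median log2 fold change of 0.034. Class II receptors had 27 probe sets for 26 genes, 16 above and 11 below 0, with a median of 0.045. The remaining pair, Olfr16 and Olfr49, had no family number in that form. The 6 members of family MOR262 on chromosome 4, among them the OR37 receptors Olfr155, Olfr156, Olfr157 and Olfr159, had 5 values above 0 and a median of 0.099, from -0.02 for Olfr70 to 0.14 for Olfr156. All of these but Olfr157 overlapped between groups. The 3 MOR244 receptors that neighbour each other on chromosome 14 stood at 0.11 for Olfr1507, 0.09 for Olfr1509 and -0.07 for Olfr1508. The eugenol receptor Olfr73 and its relative Olfr74 stood at 0.08 and 0.07. Both probe sets of Olfr701 were below 0, at -0.10 and -0.03. No test of a group was made.

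The remaining members overlapped between groups. Olfr749 stood at 0.16 (SE 0.101), higher in the tethered array at each number. Olfr1264 stood at 0.10, the pseudogene Olfr75-ps1 at 0.10, Olfr870 and Olfr480 at 0.04 and 0.05, and Olfr672 at 0.04. Olfr976 stood at -0.08, Olfr288 at -0.06, Olfr49 at -0.05, Olfr658 at -0.02 and Olfr112 at -0.01. A further 3 probe sets carried the symbols of several receptors (Olfr68 with Olfr69 on 2 of them, and Olfr151 with Olfr160) and were not members. They stood at -0.06, -0.23 and -0.07, and their groups overlapped.

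The receptors varied less between arrays, in the median, than all probe sets together. Their median standard deviation over the 6 arrays was 0.097 on the log2 scale, against 0.121 for all probe sets and 0.115 for those with a mean signal below the median. On the linear scale the median coefficient of variation was 6.72%, against 8.40% for all, and 36 of 44 members lay under 10%, as did 61.0% of all probe sets and 66.5% of those below the median signal. The spread depends on signal, and in 20 bins of signal 28 of 44 members had a spread below the median of their bin. The standard deviation exceeded the median of all probe sets in 9 members. It was largest in Olfr65, at 0.316, followed by the dimmest probe set of Olfr78 at 0.235 and Olfr159 at 0.182. The lowest coefficient of variation was that of Olfr70, at 3.50%. The arrays numbered 1 differed from the other 4 by a median size of 0.082 in the members and 0.099 in all probe sets.

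**Figure D5:**
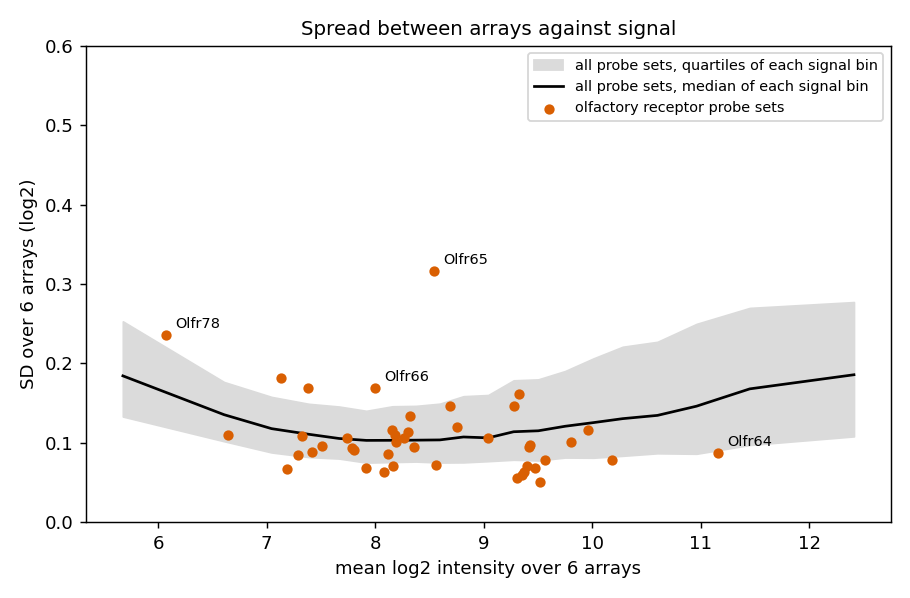
Standard deviation of log2 intensity over the 6 arrays against mean log2 intensity for the 44 olfactory receptor probe sets (points), with the median (line) and quartiles (grey) of all probe sets in 20 bins of signal. Of the 44 points, 28 lie below the median of their bin, and Olfr65, at 0.316, lies highest.

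The genes that serve olfactory receptors in neurons were followed beside them, by the brightest probe set of each gene. Limma called 0 of 17 signal transduction genes, and at an unadjusted p under 0.05 there was 1, Adcy3, the adenylyl cyclase of olfactory cilia, at 0.17 (SE 0.065). Cnga2, a subunit of the transduction channel, stood at -0.21 (SE 0.087), the phosphodiesterase gene Pde1c at -0.15 and Slc12a2, which loads neurons with chloride, at -0.29. The list had 9 values above and 8 below 0, with a median of 0.029. Over all 45 probe sets of these genes 31 values lay above and 14 below 0, with a median of 0.032. Of 11 genes for receptor trafficking 0 were called and 0 passed at an unadjusted p under 0.05, with a median of -0.024. Their 24 probe sets had 9 values above and 15 below 0, with a median of -0.079. Reep1, a receptor accessory protein, stood at 0.18 (SE 0.083), Rtp4 at -0.14, Rtp3 at -0.11 and Reep5 at -0.18. Of 20 genes for the chromatin and transcription factors that act in receptor choice, 0 were called and 0 passed at an unadjusted p under 0.05, with 8 values above and 12 below 0 and a median of -0.0088. Over all 47 probe sets of these genes 19 values lay above and 28 below 0, with a median of -0.024. Bptf, a chromatin remodelling subunit, stood at -0.32 (SE 0.13), Ebf4 at -0.15 and Ebf3 at 0.15, both of the Olf1/EBF family. Ehmt2 stood at -0.15 (SE 0.082). The counterpart of 0.0% called and 3.96% at an unadjusted p under 0.05 over all probe sets applies here too.

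Other chemosensory receptor classes were described in the same way. Vomeronasal receptors, which detect pheromones, had 34 probe sets for 31 genes, 25 of them below the median on all 6 arrays, with a median signal of 0.256 times the array median and a median log2 fold change of -0.0097. The 6 taste receptor probe sets had 4 values above and 2 below 0 and a median of 0.053, and the 1 trace amine receptor probe set stood at -0.03. In all of these classes limma called 0 probe sets. On the brightest probe set of each gene 2 of 31 vomeronasal receptors were lower at an unadjusted p under 0.05. Over all probe sets 2.29% were lower at that threshold. Whether these classes differ from the olfactory receptors was not tested.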

How the data were processed

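Labelled total RNA of 6 samples was hybridised to Affymetrix arrays, per the labels' protocols. The authors deposited a table of linear intensities with a value for each probe set on each array. How probes were summarised and scaled, and on which genome build, is not stated in the labels or files. Medians agreed between arrays, so no scaling was added. Gene symbols came from the platform annotation (34945 probe sets with 1 symbol, 932 with several, 9160 with none), and names, chromosomes, gene order and receptor families from RefSeq (GRCm38.p6).

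Intensities under 16 were set to 16 and log2 was taken. All 45037 probe sets other than 64 controls were fitted with limma 3.58.1 (R 4.3.3), tethered against untethered, with no covariate and no filter on signal. P-values are two-sided, adjusted by Benjamini-Hochberg over all of them and called under 0.05. "Below the median" refers to the probe sets of the same array, or to mean log2 intensity where said. The fit was tested on simulated data.

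Named were the 10 brightest probe sets, up to 6 per direction with groups that do not overlap, model receptors, genes with 3 or more probe sets, both extremes and up to 4 genes per pathway list; the rest were named for completeness. Members and lists were chosen with earlier results of these data known. Alternatives were the normalization, the floor, a filter on signal, the replicate number as a block, a variance trend, the brightest probe set per gene and leaving out arrays. Precision is limited by 3 arrays per group.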

Additional observations from a re-analysis of the deposited data

How the results depend on the processing

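Under every alternative run, 0 olfactory receptor probe sets were called, and the count stayed at 0 with each of the 6 arrays left out in turn. The count at an unadjusted p under 0.05, 3 as reported, was 5 with a floor of 64, 1 of 16 remaining members when only probe sets above the median signal were tested, and 1 to 3 with 1 array left out. The median log2 fold change of the members, 0.037, was 0.083 without both arrays numbered 1 and 0.012 to 0.045 with 1 array left out; it was 0.047 under quantile normalization and 0.045 under median centring of each array. The share of members below the array median, 63.3%, lay between 62.7% and 63.7% with arrays left out or the brightest probe set of each gene. Normalization, centring and the floor do not change which probe sets lie below the median, so the share could not move under them. Single values were recomputed for the 26 probe sets chosen by the naming rule, not for the other members. Of these 26, the sign of 9 turned under some setting, in each case when arrays were left out. Olfr112 (-0.01) stood at 0.022 without both arrays numbered 1. With 1 array left out Olfr112 ran from -0.045 to 0.043, Olfr15 from -0.026 to 0.067, Olfr288 from -0.11 to 0.00014, Olfr49 from -0.12 to 0.018, Olfr64 from -0.044 to 0.062, Olfr672 from -0.0021 to 0.10 and Olfr70 from -0.054 to 0.012. Olfr78 ran from -0.094 to 0.20 on 1421507_at and from -0.043 to 0.14 on 1453535_at. The cause was not tested. The other 17 of the 26 kept their direction under every alternative run on them, among them Olfr65, Olfr66 (1450596_at) and Olfr140.

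Same-numbered arrays deviated together from their group means at numbers 1 and 3 (correlations 0.618 and 0.60) and hardly at number 2 (0.0717). The main fit held no term for the number and so did not use this shared part. Whether the numbers are true pairs was not tested. With the replicate number as a block, 0 members were called and the count at an unadjusted p under 0.05 was 2. The median of 0.037 could not change, as each number holds 1 array of each group. Over all probe sets that count was 2812 with the block and 1782 without it. No detection calls were used and each group had 3 arrays, which limits the precision.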
